A study of Homo sapiens with 58 samples.

Results

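The mitochondrial DNA of a human cell carries 37 genes, and all 37 were found among the 60675 gene identifiers of the count table as the genes whose symbol starts with MT-. They comprise 13 messenger genes of the respiratory chain, 2 ribosomal RNA genes and 22 transfer RNA genes. Of these, the 13 messengers and both ribosomal RNAs passed the filter on low values, a CPM (the count scaled to the library's total) of 1 or more in 3 or more libraries, and none of the 22 transfer RNA genes did.

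HepG2 cells, a line long grown from a human liver carcinoma, were treated for 24 h with an herbal extract or with the solvent DMSO alone (vehicle, 3 libraries). The sample labels give the vehicle as 0.1% DMSO and the series text as 2%. Water extracts were made of the multi-herb formulas Sayeok-tang and Bojungikgi-tang. Ethanol extracts were made of fresh ginger (Zingiberis Rhizoma Recens) and dried ginger (Zingiberis Rhizoma), and of the single herbs Coptidis Rhizoma, Pinelliae Tuber, Zizyphi Fructus and Scutellariae Radix. Doses were 500 (high), 100 (medium) and 20 (low) µg/mL, except for Coptidis Rhizoma, which was measured at 56 (medium) and 11.2 (low) µg/mL. Sayeok-tang, fresh ginger, Pinelliae Tuber and Scutellariae Radix had 3 libraries at each dose, and dried ginger had 3 at the medium and low doses and 2 at the high dose. Bojungikgi-tang had 2 libraries at each dose. Zizyphi Fructus and Coptidis Rhizoma had 1 library per dose, so those groups have no replicate check and no test. Whether replicates came from separate cultures is not stated in the labels, so p-values measure the spread between libraries of a group, which may be technical. For each gene that spread is pooled over the 19 replicated groups, not taken from the compared groups alone. By the prefixes of the sample titles the vehicle stood by itself, while the formulas shared a prefix, as did the gingers. Scutellariae Radix and Pinelliae Tuber had another prefix in common, and so had Zizyphi Fructus and Coptidis Rhizoma. Prefix and treatment cannot be told apart in the comparisons with the vehicle.

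Library totals ranged from 22143844 to 31859981 counts. HepG2 is a hepatocyte-like line, and the 12 hepatocyte markers summed to 35500 to 50200 CPM with none at 0. The 6 fibroblast markers summed to 0.164 to 1.48 CPM with 2 at 0 in all libraries, and the 5 endothelium markers to 2.62 to 5.09 CPM. The 6 leukocyte markers summed to 1150 to 2300 CPM, nearly all of it from LYZ, which ranged from 1150 to 2300 CPM, while PTPRC, the marker common to leukocytes, and HLA-DRA were at 0 in all libraries.

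Mitochondrial DNA is transcribed from both strands as long precursors that span many genes. Most messengers and both ribosomal RNAs are punctuated by transfer RNAs, which are cut out to release the RNAs between them. The messengers encode core subunits of respiratory complex I (the ND genes), complex III (CYB), complex IV (CO1 to CO3) and the ATP synthase (ATP6 and ATP8), and the mitochondrial ribosome that translates them is built on MT-RNR1 and MT-RNR2. The RNAs are made by the polymerase POLRMT with the factors TFAM and TFB2M, and LRPPRC binds and stabilises most of the messengers.

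The positions below follow the GENCODE release 29 annotation of the GRCh38 build, in which 12 of the 13 messengers and both ribosomal RNAs lie on the plus strand and MT-ND6 lies on the minus strand. MT-RNR1 covers chrM:648-1601 and MT-RNR2 chrM:1671-3229. Between them sits the transfer RNA gene MT-TV (chrM:1602-1670, plus strand), and MT-TL1 (chrM:3230-3304, plus strand) separates MT-RNR2 from the first messenger, MT-ND1. Their sequences are shown because they flank MT-RNR2, and the strongest differences found below were those of MT-RNR1 and MT-RNR2.
MT-TV: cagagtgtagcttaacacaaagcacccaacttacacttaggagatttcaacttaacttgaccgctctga
MT-TL1: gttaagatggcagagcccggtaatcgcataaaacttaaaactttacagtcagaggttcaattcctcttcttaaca

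Neighbouring messengers can share bases, which bears on how reads are split between them. The end of MT-ATP8 (chrM:8366-8572) overlaps the start of MT-ATP6 by 46 bases, and the end of MT-ND4L (chrM:10470-10766) overlaps the start of MT-ND4 by 7. Each of these pairs is known to be translated from a single messenger. The shared bases are in capitals in the 2 sequences below, both on the plus strand.
MT-ATP8: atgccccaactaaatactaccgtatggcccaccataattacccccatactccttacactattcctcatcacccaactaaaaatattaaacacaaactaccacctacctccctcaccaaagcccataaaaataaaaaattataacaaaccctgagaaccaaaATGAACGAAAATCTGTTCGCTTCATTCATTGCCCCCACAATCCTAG
MT-ND4L: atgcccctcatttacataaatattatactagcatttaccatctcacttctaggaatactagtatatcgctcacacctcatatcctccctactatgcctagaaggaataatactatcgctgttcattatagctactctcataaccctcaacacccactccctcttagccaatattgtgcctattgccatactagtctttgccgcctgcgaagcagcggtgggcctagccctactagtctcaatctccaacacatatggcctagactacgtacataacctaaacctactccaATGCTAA

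The transfer RNA genes were almost without counts. Together the 22 genes held 112 counts in the 58 libraries, from 0 to 6 per library, with 6 libraries at 0. All of these genes are 59 to 75 bases long, shorter than the 100-base reads, so the counts give no level of the transfer RNAs themselves. Of the 112 counts, 102 fell on the 8 genes of the minus strand and 10 on 6 of the 14 genes of the plus strand, and the other 8 genes had none. MT-TQ, the glutamine transfer RNA, held 38 counts (in 26 libraries, at most 3 in a library), MT-TA, for alanine, held 34 (in 29 libraries, at most 2), and MT-TS1, for serine, held 13. MT-TE held 6 counts and MT-TC held 5. A count of 0 in a library allows a level of up to 0.0942 to 0.135 CPM, given its total and counting error only. The sequences of MT-TQ (chrM:4329-4400, minus strand) and MT-TA (chrM:5587-5655, minus strand) are shown because they held most of the counts. Capitals mark the last 3 bases of MT-TQ, which overlap MT-TI on the plus strand.
MT-TQ: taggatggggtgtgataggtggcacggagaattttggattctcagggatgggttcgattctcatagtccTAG
MT-TA: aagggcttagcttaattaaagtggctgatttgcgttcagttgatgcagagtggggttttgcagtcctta

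In the vehicle, the mitochondrial messengers held 6.81, 6.00 and 7.02% of all counts and the ribosomal RNAs 2.55, 2.68 and 2.51%. Per kilobase, MT-RNR2 had the highest level in the vehicle, 13166 ± 231 CPM per kb (SD, n = 3), and it was the highest member in all 58 libraries. Its range did not meet that of MT-CO3 (10055 ± 553), which overlapped MT-CO2 (9723 ± 734) and MT-CO1 (9638 ± 724). MT-ND4 (7317 ± 986), MT-ATP6, MT-ND3, MT-RNR1 (5159 ± 413), MT-ND1, MT-CYB, MT-ND4L and MT-ND2 (4101 ± 444) followed, each overlapping the next. The lowest levels were those of MT-ND5 (1936 ± 45.6), MT-ATP8 (1395 ± 73.9) and MT-ND6 (750 ± 86.1), whose ranges did not touch. MT-ND6 is the messenger of the minus strand, and MT-ATP8 is the shortest of the 13, at 207 bases. MT-RNR1, which lies upstream of MT-RNR2 on the same strand, stood at 0.384, 0.419 and 0.372 times the level of MT-RNR2 per base in the 3 vehicle libraries. In bulk samples such as these, fewer cells of a kind and less RNA per cell cannot be told apart. Replicates differed most for MT-ATP8 and MT-ND6, with a median coefficient of variation over the 19 replicated groups of 11.2% and 9.32%, against 4.1% for MT-RNR2.

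**Figure D1:**
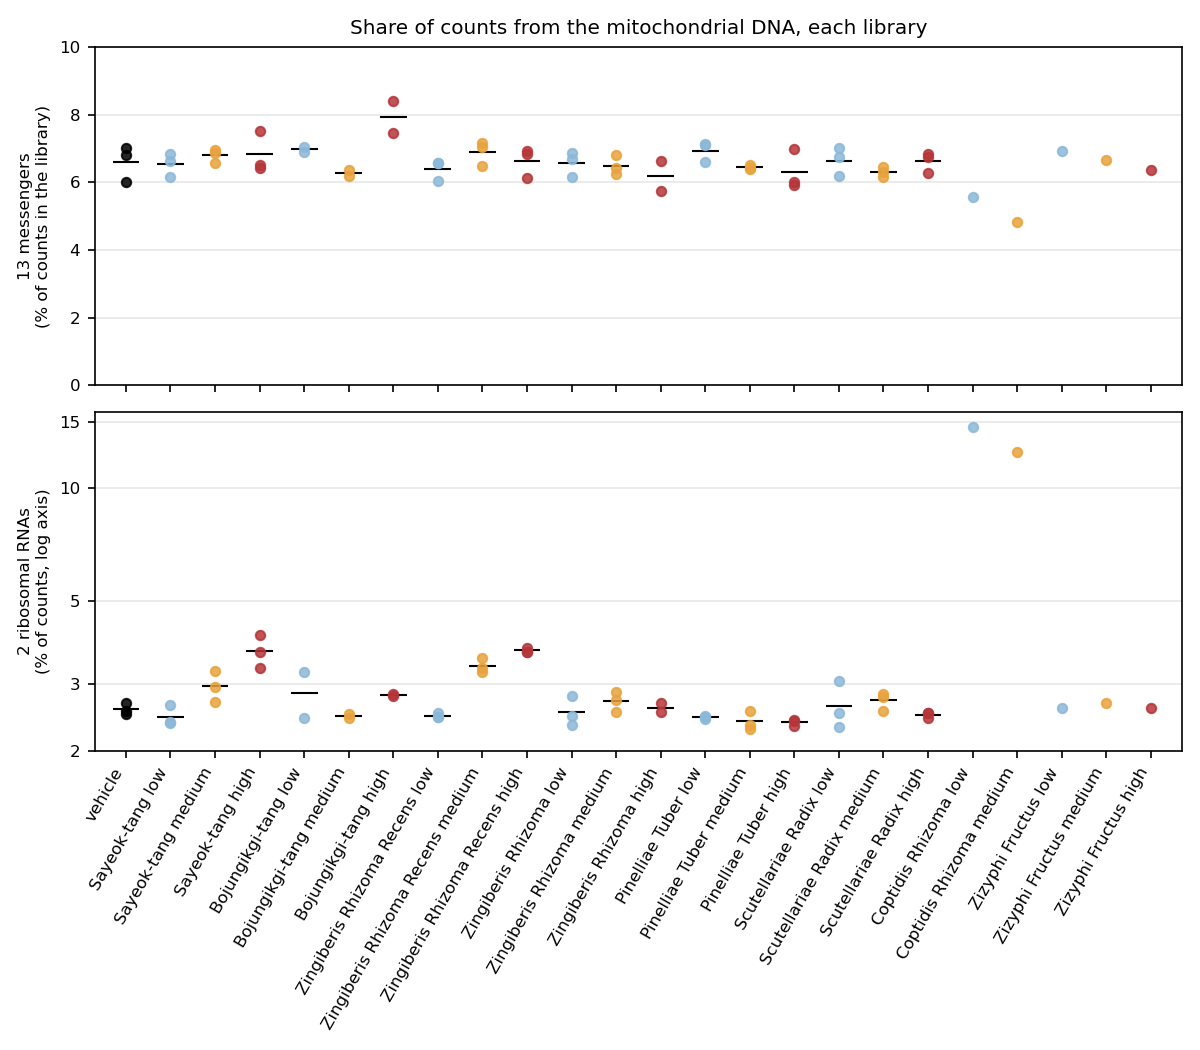
Percent of each library's counts from the 13 messengers (upper panel, linear axis) and the 2 ribosomal RNAs (lower panel, log axis) of the mitochondrial DNA. Points are libraries, coloured by dose, and lines are means of replicated groups; the ribosomal RNA share stood at 14.5 and 12.5% in the 2 Coptidis Rhizoma libraries and at 4.08% or less in the other 56.

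Coptidis Rhizoma, a rhizome known for the alkaloid berberine, gave libraries unlike any of the others. The ribosomal RNAs held 14.5% of the counts at the low dose (95% Wilson interval 14.51 to 14.54) and 12.5% at the medium dose (12.46 to 12.48), where the other 56 libraries lay between 2.29 and 4.08%. The messengers held 5.56% (5.55 to 5.56) and 4.82% (4.81 to 4.82), below the 5.73 to 8.40% of the other 56. These intervals cover counting error only. As a share of the nuclear counts alone, the messengers stood at 6.95% and 5.82%, against 6.25 to 9.46% in the other 56, so the low dose then lay within their range and the medium dose below it.

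Both ribosomal RNAs stood far above the range of every other library at both doses, and with 1 library each there was no test. MT-RNR1, the RNA of the small subunit, stood at 53561 CPM at the low dose and 46014 at the medium dose, against 4806, 5360 and 4598 in the vehicle libraries and at most 11384 in the other 56. MT-RNR2, the RNA of the large subunit, stood at 111833 and 90552 CPM, against 20466, 20913 and 20200 in the vehicle. The fold over the vehicle was thus 10.9 and 9.35 for MT-RNR1 and 5.45 and 4.41 for MT-RNR2. Per base the ratio of MT-RNR1 to MT-RNR2 was 0.783 at the low dose and 0.830 at the medium dose, against 0.361 to 0.617 in the other 56 libraries.

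In the 1 library of the low dose the messengers split into 3 stretches along the mitochondrial DNA. Next to the ribosomal RNAs, the complex I genes MT-ND1 (7390 CPM) and MT-ND2 (6026 CPM) were higher at the low dose than in each vehicle library, by 0.74 and 0.50 on the log2 scale. At the medium dose both lay within the range of the vehicle, at 4611 and 4240 CPM. From MT-CO1 to MT-ND4 all 8 messengers lay below each vehicle library at both doses. Within this stretch the log2 difference from the vehicle at the low dose was -0.23 for MT-CO1, -0.42 for MT-CO2, -0.43 for MT-ATP8, -0.50 for MT-ATP6, -0.82 for MT-CO3, -1.09 for MT-ND3, -0.96 for MT-ND4L and -1.0 for MT-ND4. MT-ND4, the largest of these complex I genes, stood at 5042 and 6587 CPM at the low and medium doses, against 10294, 8630 and 11323 in the vehicle.

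Past MT-ND4 the sign turned. MT-ND5, a complex I gene separated from MT-ND4 by MT-TH, MT-TS2 and MT-TL2, stood at 8468 CPM at the low dose and 4322 at the medium dose, against 3442, 3601 and 3482 in the vehicle. MT-ND6, on the minus strand, stood at 875 and 494 CPM against 444, 357 and 380. MT-CYB, the complex III gene, stood at 8335 and 5971 CPM against 5034, 4592 and 5651. These genes were above every vehicle library at both doses, by 1.27, 1.15 and 0.71 on the log2 scale at the low dose and by 0.30, 0.33 and 0.23 at the medium dose. At the medium dose all of them, and at the low dose MT-ND6, lay within the range of the other 56 libraries. In all, 12 of the 15 measured members at the low dose and 10 at the medium dose lay outside the range of the other 56 libraries. How many of all genes lay outside that range, or below each vehicle library, was not counted. The level of MT-ND5 over that of MT-ND4 per base was 1.28 at the low dose and 0.499 at the medium dose, against 0.207 to 0.321 in the other 56 libraries. That of MT-ND6 over MT-ND5 was 0.357 and 0.394, within the 0.326 to 0.646 of the other 56. The strand setting of the counting is not given, so the strand of the reads counted for MT-ND6 is uncertain.

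Past a fold of 1.5 were 10 of the 15 measured members at the low dose, 6 higher and 4 lower, against 6.15% of all genes. At the medium dose 6 were past it, 2 higher and 4 lower, against 21.4% of all genes. So more nuclear genes were past this fold at the medium dose than at the low dose, while more mitochondrial genes were past it at the low dose. The median log2 difference of the 13 messengers was -0.42 at the low dose and -0.37 at the medium dose, beside 0.0022 and 0.0024 over all genes. Under every scaling tried the folds of MT-RNR1 and MT-RNR2 stayed within 3.21 to 3.50 and 2.12 to 2.48 on the log2 scale.

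**Figure D2:**
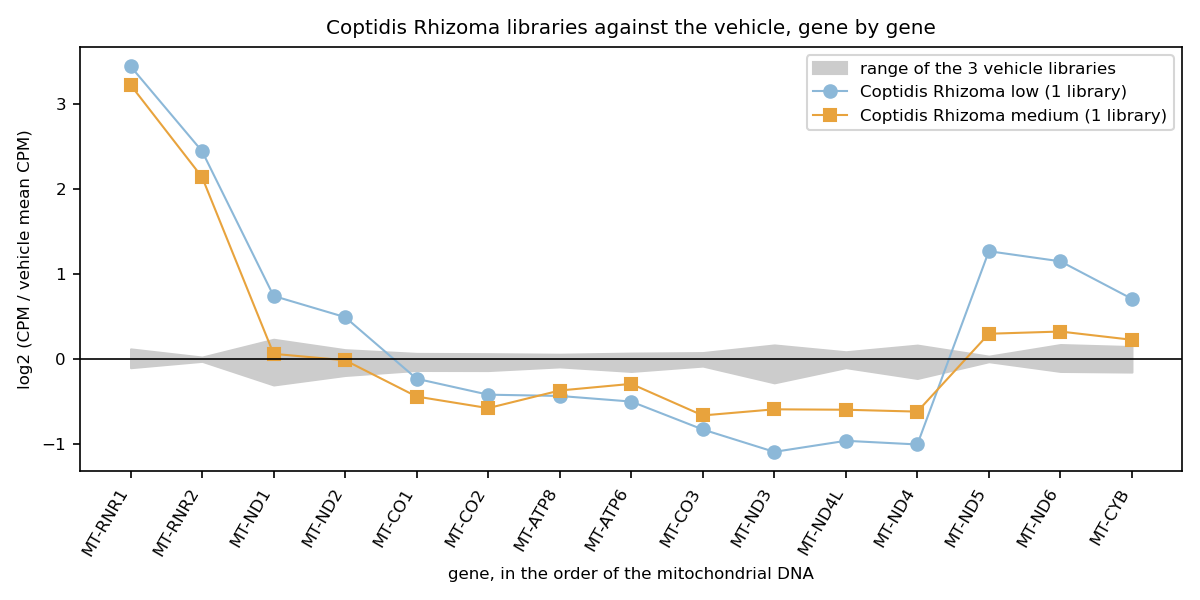
Log2 ratio of CPM to the vehicle mean for the 15 measured genes, in their order on the mitochondrial DNA, in the Coptidis Rhizoma library of the low dose (circles) and of the medium dose (squares). The grey band is the range of the 3 vehicle libraries; the low dose falls from 3.44 at MT-RNR1 to -1.09 at MT-ND3 and stands at 1.27 at MT-ND5.

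Nuclear genes that act on the mitochondrial DNA and its RNA were read beside these libraries. None of the 16 genes of mitochondrial DNA transcription and replication and none of the 21 genes of mitochondrial RNA processing and turnover was past the 1.5-fold, and their median log2 differences were -0.07 and 0.06 at the low dose and -0.01 and 0.12 at the medium dose. POLRMT stood at 79.5 CPM at the low dose and 82.8 at the medium dose, against 78.1 ± 1.89 (SD, n = 3) in the vehicle. TFAM stood at 112 and 104 CPM against 115 ± 1.72 (SD, n = 3), TFB2M at 23.9 and 25.7 against 26.0 ± 0.471, and LRPPRC at 639 and 672 against 555 ± 22.2. None of the 34 nuclear respiratory chain subunits on the list was past the fold either. Of the 9 nuclear regulators of mitochondrial biogenesis 1 was past it at the low dose and 3 at the medium dose, beside 6.15 and 21.4% of all genes. PPARGC1A, a coactivator of mitochondrial genes, stood at 30.3 and 30.4 CPM against 19.8 in the vehicle (log2 differences of 0.61 and 0.62). At the medium dose ESRRA, a nuclear receptor, stood at 45.4 CPM against 27.7 (0.71) and the transcription factor NRF1 at 9.79 against 16.0 (-0.71).

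The ribosomal RNAs have only a short tail, so 14 nuclear RNAs without a poly(A) tail were read beside them. Their summed level was 76.6 CPM at the low dose and 51.0 at the medium dose, against 49.2 to 60.1 in the vehicle. Of these RNAs 8 passed the filter on low values. Past the 1.5-fold, 2 were higher and 3 lower at the low dose and 1 and 3 at the medium dose, beside 6.15 and 21.4% of all genes. In the vehicle SNORD3A, H2BC8, H4C3 and RPPH1 averaged 0.784, 0.824, 0.721 and 1.48 CPM, near the filter's limit of 1 CPM. RN7SL1, the RNA of the signal recognition particle, stood at 27.4 and 13.2 CPM against 14.2 to 19.0 in the vehicle. At the low dose RN7SL1 and RN7SL2 were higher than the vehicle by 0.95 and 1.17 on the log2 scale. The part of RNA without a tail in the ribosomal RNA levels was not tested. The leukocyte marker sum was 1470 CPM at the low dose and 1630 at the medium dose and the hepatocyte marker sum 40800 and 36900, and their part was not tested. Zizyphi Fructus, whose libraries share the title prefix of Coptidis Rhizoma, held 2.60, 2.68 and 2.61% ribosomal RNA at its high, medium and low doses and 6.35, 6.67 and 6.92% messengers. None of its 15 measured members was past the 1.5-fold at any dose, against 2.71, 2.81 and 3.63% of all genes at the high, medium and low doses. At the high dose MT-ND6 (340 CPM) and at the low dose MT-ND5 (2979 CPM) lay below all other libraries, those of Coptidis Rhizoma included.

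Sayeok-tang at its high dose also had more mitochondrial ribosomal RNA, at a smaller scale and with 3 libraries. Of the 15 measured members 4 rose and none fell (edgeR quasi-likelihood test, adjusted p under 0.05 over 13945 genes), beside 40.2% of all genes called. MT-RNR1 stood at 8537, 8908 and 11384 CPM, each above the vehicle libraries, and its log2 fold change was 0.97 (SE 0.111, adjusted p = 9.6e-10, edgeR). MT-RNR2 stood at 24570, 28204 and 30143 CPM, with a log2 fold change of 0.43 (SE 0.0752, adjusted p = 8.1e-06, edgeR). The ribosomal RNA share was 3.32, 3.65 and 4.08% of the counts, above every vehicle library, while the messenger share of 6.44, 7.51 and 6.53% overlapped that of the vehicle. The leukocyte marker sum, nearly all LYZ, was 1850 to 1930 CPM in these libraries against 1320 to 1390 in the vehicle, and the hepatocyte marker sum 40100 to 41800 against 46500 to 47000. Their part in the result was not tested.

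Among the messengers, 2 of the complex IV genes rose slightly with Sayeok-tang at the high dose. MT-CO2 had a log2 fold change of 0.19 (SE 0.0757, adjusted p = 0.042, edgeR) and MT-CO3 of 0.19 (SE 0.0693, adjusted p = 0.029, edgeR), and both were lost without vehicle replicate 2 and without replicate 2 of the extract, each of which left 2 called members. Both were also lost without replicate 1 of the extract, MT-CO2 without its replicate 3 and by DESeq2, and MT-CO3 without vehicle replicate 3. The other 11 messengers were not called, and the median log2 fold change of the 13 was 0.16, beside 8.8e-05 over all genes. At the medium dose MT-RNR1 alone was called, at 6033, 5681 and 7408 CPM (log2 fold change 0.37, SE 0.11, adjusted p = 0.04), beside 4.22% of all genes. That call was lost by DESeq2 and without vehicle replicate 1 or 3 or replicate 1 or 3 of the extract, each of which left 0. At the low dose no member was called by edgeR, beside 0.0574% of all genes, or by DESeq2. None had an unadjusted p under 0.05 (edgeR), and MT-RNR1 stood at 4763, 5400 and 4761 CPM. Against its own low dose, which carries the same title prefix, the high dose had higher MT-RNR1 (log2 fold change 0.95, SE 0.111, adjusted p = 1.7e-09) and MT-RNR2 (0.51, SE 0.0753, adjusted p = 3.7e-07). MT-ATP6, of the ATP synthase, was also called (0.25, SE 0.0987, adjusted p = 0.038), though its libraries overlapped, so 3 members rose, beside 37.6% of all genes.

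Fresh ginger, compared with the same 3 vehicle libraries, had higher ribosomal RNAs at the high and the medium dose. At the high dose MT-RNR1 stood at 9269, 9282 and 9791 CPM and MT-RNR2 at 28134, 28107 and 28121 CPM, both above every vehicle library. Their log2 fold changes were 0.94 (SE 0.111, adjusted p = 1.1e-09) and 0.45 (SE 0.0752, adjusted p = 2.1e-06). The medium dose had MT-RNR1 at 8219, 8157 and 9076 CPM (0.79, SE 0.11, adjusted p = 7.4e-07) and MT-RNR2 at 24258, 25624 and 26899 CPM (0.32, SE 0.0752, adjusted p = 0.0028). At the low dose MT-RNR1 stood at 5009, 4527 and 4906 CPM, overlapping the vehicle, and MT-RNR2 at 19894, 19942 and 19324 CPM, below it. The ribosomal RNA share was 3.67, 3.67 and 3.76% at the high dose, 3.24, 3.31 and 3.53% at the medium dose and 2.52, 2.45 and 2.46% at the low dose. The leukocyte marker sum was 1970 to 2300 CPM at the high dose and 1610 to 1750 at the medium dose, and the hepatocyte marker sum 42400 to 43800 and 49000 to 49800, against 1320 to 1390 and 46500 to 47000 in the vehicle. Their part in the result was not tested.

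**Figure D3:**
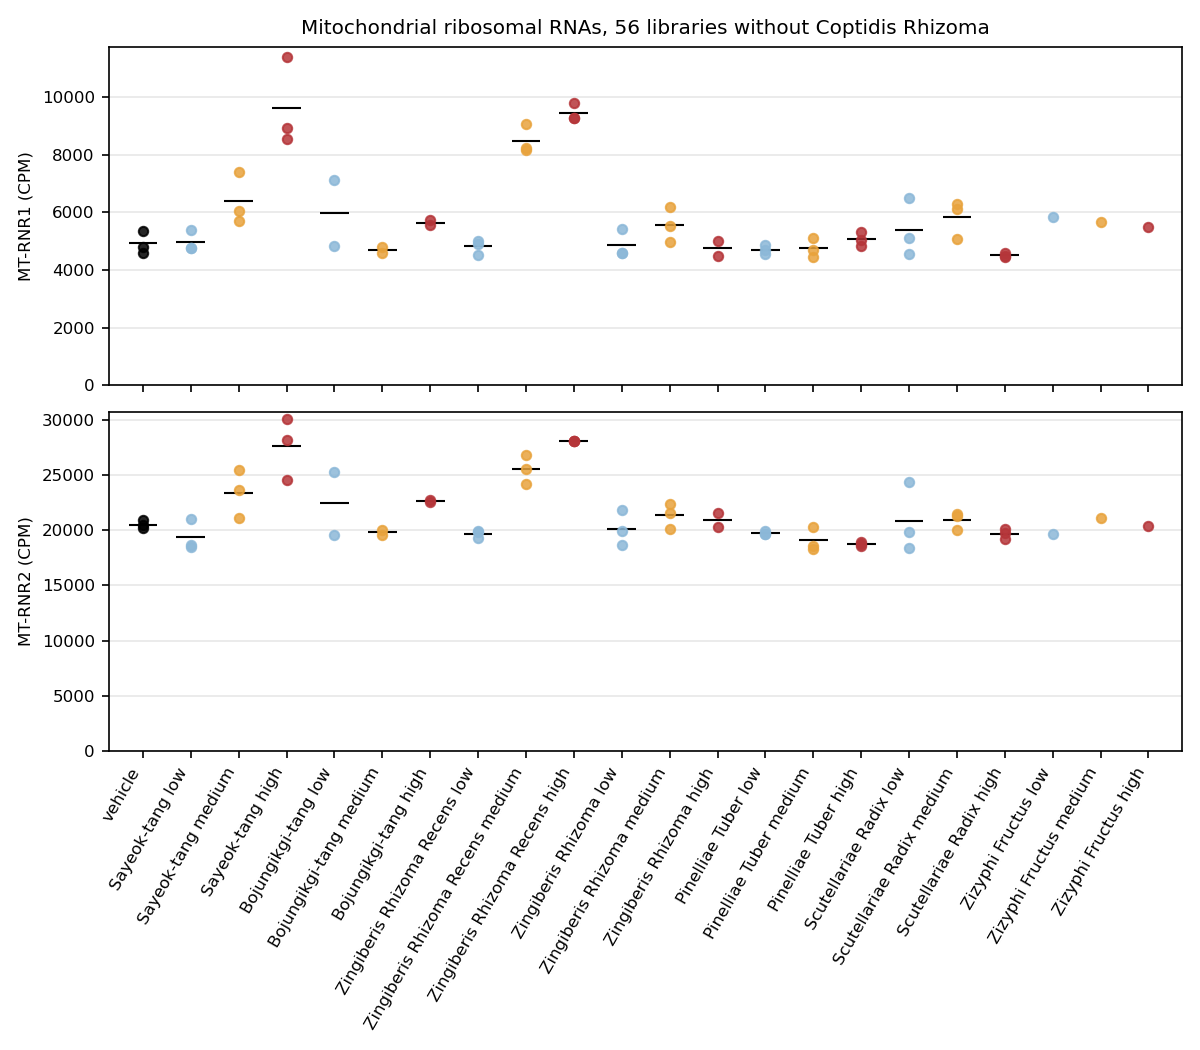
CPM of MT-RNR1 (upper panel) and MT-RNR2 (lower panel) in the vehicle, low (blue), medium (orange) and high (red) dose libraries of all extracts but Coptidis Rhizoma; points are libraries and lines means. The medium and high dose libraries of Sayeok-tang and of fresh ginger lie above all 3 vehicle libraries in both panels. So do the high dose libraries of Bojungikgi-tang and the medium dose library of Zizyphi Fructus.

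In all, 5 members were called with fresh ginger at the high dose, 4 higher and 1 lower, beside 47.9% of all genes. Apart from the ribosomal RNAs, MT-CO2 rose (log2 fold change 0.22, SE 0.0757, adjusted p = 0.016) and MT-ATP8 rose (0.65, SE 0.195, adjusted p = 0.0051), and MT-CO1 fell (-0.17, SE 0.0709, adjusted p = 0.049). MT-ATP8 stood at 685, 384 and 291 CPM against 272, 301 and 294 in the vehicle, so only 2 of the 3 libraries lay above it, and without replicate 1, the library at 685 CPM, the calls fell to 2. The rise of MT-CO2 was lost without vehicle replicate 2 and without replicate 1 or 2 of the extract. The fall of MT-CO1 was lost with other scalings, by DESeq2, and without vehicle replicate 1 or 3 or replicate 1 or 3 of the extract. The median log2 fold change of the messengers was 0.09. At the medium dose the ribosomal RNAs were the 2 members called, beside 11.3% of all genes, and without replicate 1 of that dose 5 were. No member was called at the low dose by edgeR, beside 0.602% of all genes, or by DESeq2. At an unadjusted p under 0.05 (edgeR) there was 1, and the share of all genes at that threshold was not counted. The high dose against the low dose had 4 members higher, MT-RNR1 (0.97, SE 0.111, adjusted p = 4.4e-10), MT-RNR2 (0.51), MT-CO2 (0.27) and MT-ATP8 (0.56), beside 47.6% of all genes.

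The difference between the gingers was tested directly at the high dose, since they share a title prefix. Fresh ginger had higher MT-RNR1 (log2 fold change 0.99, SE 0.127, adjusted p = 3.2e-08), MT-RNR2 (0.43, SE 0.0849, adjusted p = 1.4e-04), MT-ND1 (0.33, adjusted p = 0.036) and MT-CO3 (0.28, adjusted p = 0.0073) than dried ginger, beside 23.5% of all genes called. In dried ginger MT-RNR1 stood at 5000 and 4496 CPM, close to the vehicle. Without replicate 2 of dried ginger the 4 calls fell to 2.

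With dried ginger, Pinelliae Tuber and Scutellariae Radix no ribosomal RNA was called against the vehicle, and 4 of their 7 calls were of MT-CO1, the catalytic subunit of complex IV. Its libraries stood at 15600, 13576 and 15407 CPM in the vehicle. At the high doses it stood at 13014 and 11382 CPM with dried ginger (log2 fold change -0.28, SE 0.0798, adjusted p = 0.003), at 12142, 13052 and 11042 with Pinelliae Tuber (-0.30, SE 0.0709, adjusted p = 0.0024) and at 12789, 13487 and 11719 with Scutellariae Radix (-0.23, SE 0.0709, adjusted p = 0.005). Each of these libraries lay below the 3 vehicle libraries, which the comparisons share. The differences of MT-CO1 between the high and the low dose of the same extract were smaller, at -0.15 (adjusted p = 0.12), -0.16 (adjusted p = 0.17) and -0.10 (adjusted p = 0.24) on the log2 scale, and none was called.

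Dried ginger at the high dose had 3 members called, beside 46.1% of all genes. Beside MT-CO1, MT-CO3 fell from 8330, 7464 and 7854 CPM in the vehicle to 7333 and 6356 CPM (log2 fold change -0.20, SE 0.0778, adjusted p = 0.029). MT-ND4L rose to 1715 and 1593 CPM from 1398, 1228 and 1315 (0.33, SE 0.118, adjusted p = 0.018). The call of MT-CO3 was lost without vehicle replicate 1 and that of MT-ND4L without vehicle replicate 2. Leaving out replicate 2 of that dose lost MT-CO1 and MT-CO3, and leaving out its replicate 1 lost MT-ND4L, though each leaves 1 library. No member was called at the medium or the low dose by edgeR, beside 1.45 and 2.12% of all genes, or by DESeq2. Each of these doses had 1 member at an unadjusted p under 0.05 (edgeR). The share of all genes at that threshold was not counted. Leaving out replicate 2 of the low dose gave 1 call at that dose. MT-CO3 was also lower at the high than at the low dose (-0.23, SE 0.0779, adjusted p = 0.014), the 1 member called beside 47.4% of all genes, and without replicate 1 of the high dose 4 were, or 3 without replicate 3 of the low dose.

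With Pinelliae Tuber, MT-CO1 at the high dose was the 1 member called, beside 15.7% of all genes. At the medium and low doses edgeR and DESeq2 called none, with 1 and 5 at an unadjusted p under 0.05, beside 0.287 and 0.272% of all genes. Between its high and low doses none was called either (4 at an unadjusted p under 0.05, none by DESeq2), beside 10.1% of all genes, and 1 was without replicate 2 of the high dose.

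With Scutellariae Radix at the high dose 2 members were called, MT-CO1 lower and MT-ND4L higher, beside 56.7% of all genes. The count was 6 with the compared groups alone. MT-ND4L, a small complex I subunit, stood at 2013, 1763 and 1809 CPM (log2 fold change 0.50, SE 0.106, adjusted p = 7.5e-05), above every vehicle library. MT-ND4, which shares its messenger, stood at 11610, 11628 and 10618 CPM and was not called. Per base MT-ND4L stood at 0.704 to 0.804 times MT-ND4 there, against 0.539 to 0.660 in the vehicle and 0.736 to 0.767 with dried ginger at the high dose. The ratio was also 0.713 to 0.777 at the low dose of Scutellariae Radix, 0.700 to 0.753 with Bojungikgi-tang at the medium dose and 0.646 to 0.809 with Pinelliae Tuber at the high dose, and MT-ND4L was called in none of these 3 against the vehicle. Without replicate 3 of the high dose MT-CO1 was lost.

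At the medium dose of Scutellariae Radix MT-CO1 was the 1 member called (-0.23, SE 0.0709, adjusted p = 0.019), beside 18.3% of all genes, and it was lost without vehicle replicate 1 or 3 or without replicate 3 of the dose, while without replicate 1 of the dose 2 members were called. At the low dose none was called by edgeR, beside 10.3% of all genes, or by DESeq2, while 2 were with the compared groups alone. At an unadjusted p under 0.05 (edgeR) there was 1, and the share of all genes at that threshold was not counted. The high dose against the low dose had 2 members lower, MT-CO3 (-0.20, SE 0.0693, adjusted p = 0.011) and MT-RNR1 (-0.26, SE 0.11, adjusted p = 0.045), beside 55.7% of all genes. Without replicate 3 of the low dose, in which MT-RNR1 stood at 6511 CPM against 4540 and 5118 in the others, 0 members were called, and likewise 0 without replicate 3 of the high dose. Without replicate 1 of the high dose 1 was called, without replicate 1 of the low dose 4 were, and DESeq2 called 1. Replicate 3 of the low dose also had 116 CPM of RN7SL1, against 14.2 to 19.0 in the vehicle, and the part of this in the result was not tested. Between Pinelliae Tuber and Scutellariae Radix at the high dose no member was called by edgeR, beside 55.9% of all genes, or by DESeq2. Without replicate 2 or 3 of Pinelliae Tuber 1 was called. At an unadjusted p under 0.05 (edgeR) there was 1, and all genes were not counted at that threshold.

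With Bojungikgi-tang at its high dose 9 of the 13 messengers rose, beside 4.55% of all genes called. The ribosomal RNAs were not called, though both libraries lay above every vehicle library in each of them. MT-RNR1 stood at 5735 and 5549 CPM, against at most 5360 in the vehicle, and MT-RNR2 at 22729 and 22571 CPM, against at most 20913. The median log2 fold change of the messengers was 0.42, beside 0.0017 over all genes. They held 8.40 and 7.46% of the counts in its 2 libraries, both above the vehicle. Without replicate 2 of the extract, which leaves 1 library, 0 members were called, and without vehicle replicate 2 there were 4. Without replicate 2 of the extract the log2 fold change was 0.53 for MT-ND1, against 0.52 with it, but 0.45 for MT-ATP8, against 1.15, and 0.37 for MT-ND6, against 0.82.

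By complex, 7 of the 9 encode complex I subunits, as do 7 of all 13 messengers, so every complex I messenger rose. The others called were MT-ATP8 and MT-CO3, so the calls were not confined to complex I. Of the 15 measured members, 12 had an unadjusted p under 0.05 (edgeR), and the share of all genes at that threshold was not counted. MT-ND1 stood at 6282 and 6386 CPM against 4456, 3579 and 5194 in the vehicle (log2 fold change 0.52, SE 0.117, adjusted p = 0.004), and here the replicates were alike. MT-ND4 stood at 14183 and 12722 CPM (0.42, SE 0.103, adjusted p = 0.011), MT-ND2 at 6303 and 5676 (0.49, SE 0.122, adjusted p = 0.012) and MT-ND5 at 4703 and 4119 (0.33, SE 0.0825, adjusted p = 0.012). MT-ND3 stood at 2859 and 2435 CPM (0.50, SE 0.111, adjusted p = 0.0042). In each of these 5 both libraries lay above all 3 vehicle libraries. At this dose 14 of the 15 measured members did not overlap the vehicle. So did 6 at the low dose and 4 at the medium dose, where none was called. The share of all genes without overlap was not counted.

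In 3 of the called messengers the replicates lay far apart, while the spread in the test is pooled over all replicated groups. MT-ND4L stood at 2256 and 1521 CPM (log2 fold change 0.52, SE 0.117, adjusted p = 0.004) and MT-ND6 at 880 and 509 CPM (0.82, SE 0.166, adjusted p = 0.0015). MT-ATP8, of the ATP synthase, stood at 886 and 395 CPM against 272, 301 and 294 (1.15, SE 0.213, adjusted p = 4e-04), the largest rise of a messenger in this comparison. MT-CO3 rose least (0.25, SE 0.0770, adjusted p = 0.046), and its call was lost with other scalings, with the replicate block, by DESeq2 and without vehicle replicate 2 or 3. MT-CO1, MT-CO2, MT-ATP6 and MT-CYB were not called.

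**Figure D4:**
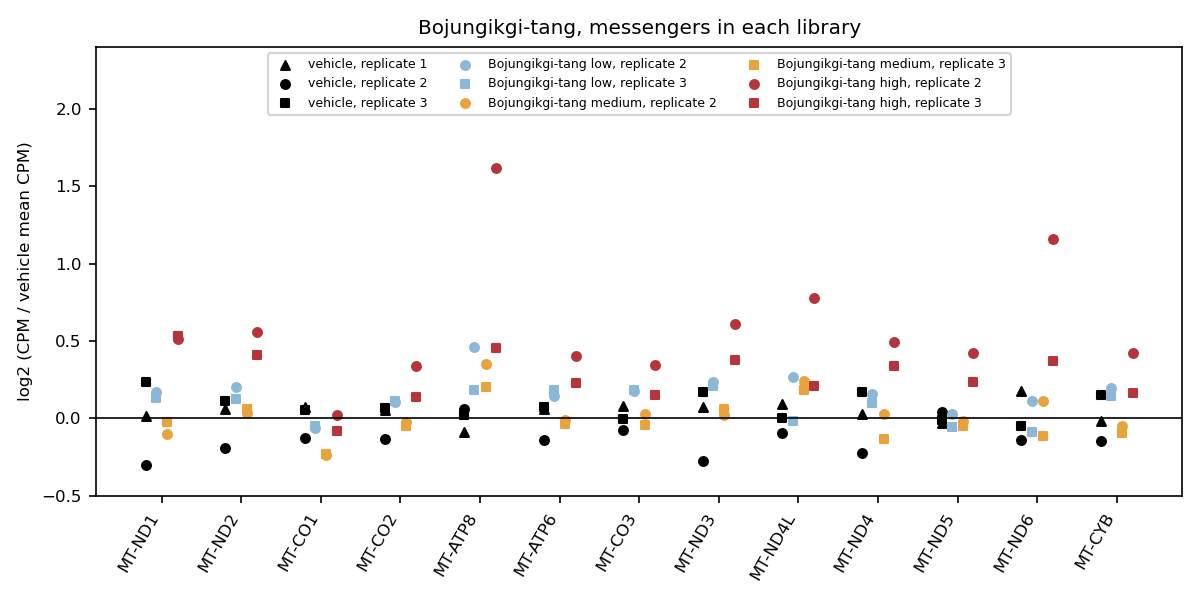
Log2 ratio of CPM to the vehicle mean for the 13 messengers in each library of the vehicle (black) and of Bojungikgi-tang at the low (blue), medium (orange) and high (red) dose; the marker shape gives the replicate number. Replicate 2 of the high dose is farthest from 0 at MT-ATP8 (886 CPM) and MT-ND6 (880 CPM), where replicate 3 stands at 395 and 509 CPM.

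That replicate 2 had the highest level of the 56 libraries other than Coptidis Rhizoma for 10 of the 15 measured members. The share of all genes that were highest in this library was not counted. MT-ATP8 stood at 0.483 times MT-ATP6 per base in it, against 0.188 to 0.240 in the vehicle, and the next highest was replicate 1 of fresh ginger at the high dose, at 0.431. In those same 2 libraries MT-ND6 stood at 880 and 629 CPM, and MTATP6P1, a nuclear copy of mitochondrial sequence, at 960 and 951 CPM against 577, 558 and 664 in the vehicle. RSEM divides reads that fit both a mitochondrial gene and a nuclear copy, so how much of each level belongs to which is uncertain. Of 404 nuclear copies by symbol only 4 entered the test, MTATP6P1 (mean 626 CPM), MTND2P28 (188), MTCO1P12 (79.3) and MTND1P23 (0.717), followed by MTND5P11, which did not. MTATP6P1 was itself called in Bojungikgi-tang at the high dose (log2 fold change 0.49, SE 0.139, adjusted p = 0.031). It was also called with fresh ginger, at the high dose against the vehicle (0.32, SE 0.126, adjusted p = 0.031) and against the low dose (0.31, SE 0.126, adjusted p = 0.037), and MTND2P28 was lower with dried ginger at the high dose (-0.33, SE 0.116, adjusted p = 0.017).

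The medium and low doses of Bojungikgi-tang had no member called by edgeR, beside 0.0645 and 0% of all genes, or by DESeq2. At an unadjusted p under 0.05 (edgeR) were 1 and 2, and the share of all genes at that threshold was not counted. Replicate 3 of the low dose held 3.24% ribosomal RNA, above the 2.45% of replicate 2. Between the high and the low dose MT-ND5 (0.35, SE 0.0911, adjusted p = 0.033) and MT-ND6 (0.80, SE 0.186, adjusted p = 0.01) were higher, beside 1.69% of all genes. Without replicate 2 of the high dose, or without replicate 3 of the low dose, 0 were called, without replicate 2 of the low dose 1 was, and without replicate 3 of the high dose 4 were.

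Set against Sayeok-tang at the high dose, the other formula with the same title prefix, Bojungikgi-tang differed in 10 of 15 members, beside 26.2% of all genes. MT-RNR1 (-0.77, SE 0.126, adjusted p = 5.1e-06) and MT-RNR2 (-0.29, SE 0.0846, adjusted p = 0.0087) were lower, and 8 messengers were higher, from MT-ATP8 (0.79, SE 0.212, adjusted p = 0.0039) to MT-ND5 (0.26, SE 0.0826, adjusted p = 0.014). Without replicate 2 of Bojungikgi-tang 1 member was called, and leaving out replicate 1 or 3 of Sayeok-tang left 5 or 4.

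**Figure D5:**
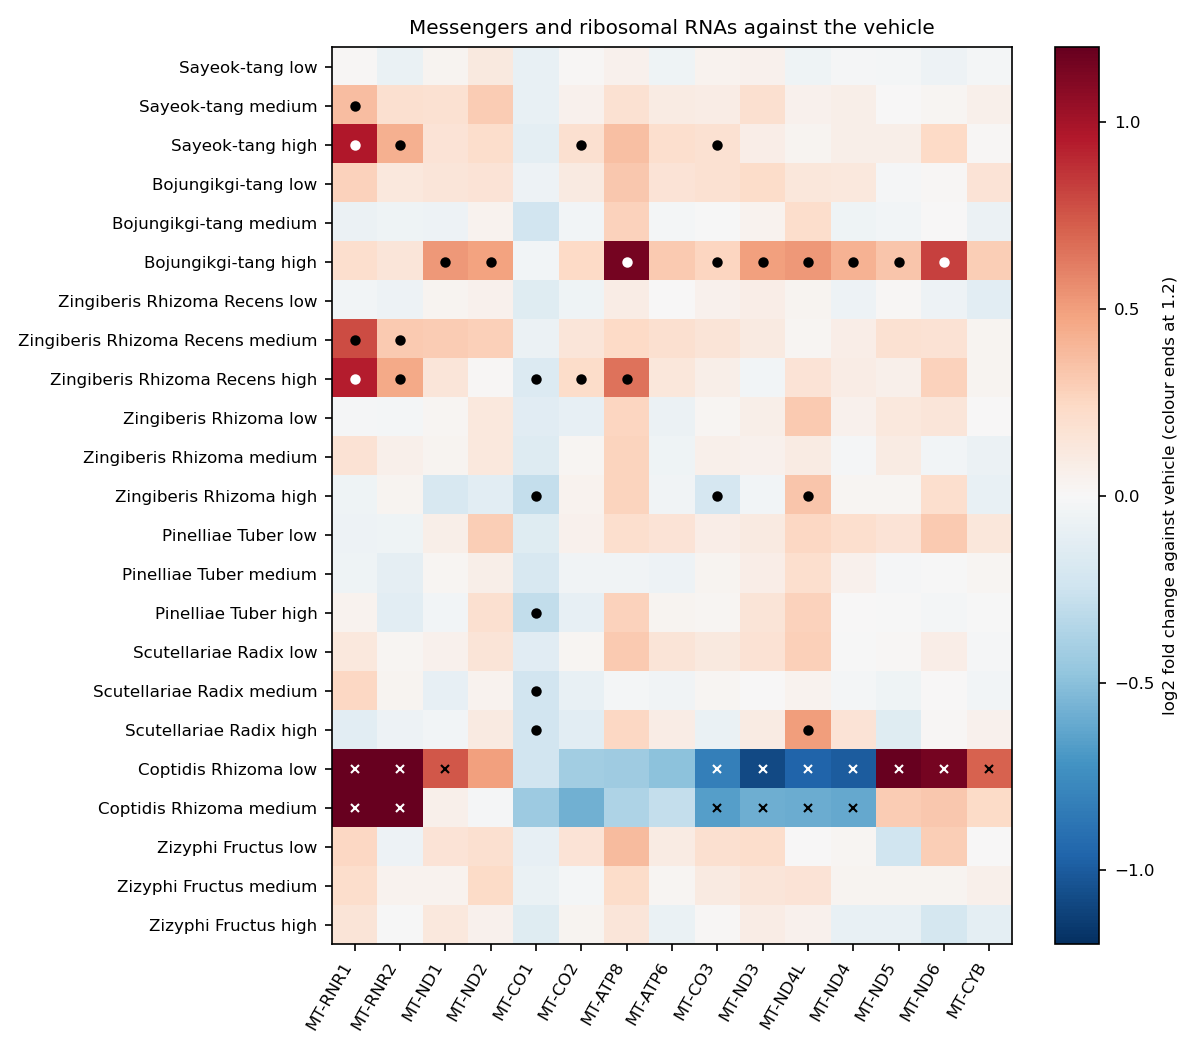
Log2 fold change against the vehicle of the 15 measured genes (columns, in the order of the mitochondrial DNA) in the 23 treated groups (rows). Dots mark genes called by edgeR (adjusted p under 0.05) in replicated groups and crosses genes past 1.5-fold in groups of 1 library; the colour scale ends at 1.2 either way, and all rows share the 3 vehicle libraries.

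Nuclear genes that act on mitochondrial RNA were called at the high doses, also where the ribosomal RNAs were not. Of the 21 genes of mitochondrial RNA processing and turnover, 15 rose and none fell with Sayeok-tang, and 12 rose and none fell with dried ginger, in which MT-RNR1 and MT-RNR2 were not called. With Pinelliae Tuber 10 rose and none fell, with Scutellariae Radix 12 rose and 1 fell, with fresh ginger 8 rose and 3 fell, and with Bojungikgi-tang 1 rose, REXO2 (0.25, adjusted p = 0.021). The median log2 fold changes of the list were 0.18, 0.16, 0.14, 0.17, 0.05 and 0.04 in that order, beside 0.01 or less over all genes. The share of all genes called was 40.2, 46.1, 15.7, 56.7, 47.9 and 4.55% in that order. The 13 of 21 with Scutellariae Radix, the 11 with fresh ginger and the 1 with Bojungikgi-tang were near it. The 12 of 21 with dried ginger was not far above it. REXO2, an exonuclease that degrades short RNA in mitochondria, rose from 43.8 CPM in the vehicle to 59.9 with Sayeok-tang (0.45, adjusted p = 3.9e-08), 64.5 with dried ginger (0.56, adjusted p = 2.1e-09), 64.3 with fresh ginger (0.55, adjusted p = 1.4e-10) and 63.2 with Scutellariae Radix (0.53, adjusted p = 3e-10). FASTKD5 and FASTKD1, RNA-binding proteins of mitochondria, rose in these 4, and FASTKD5 also with Pinelliae Tuber (0.12, adjusted p = 0.039), with FASTKD5 going from 68.0 CPM to 83.3 with Sayeok-tang (0.29, adjusted p = 9.9e-08).

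Of the 16 genes of mitochondrial DNA transcription and replication, 5 rose with Sayeok-tang and none fell, and 5 rose and 4 fell with Scutellariae Radix. All genes were called at 40.2 and 56.7%, so the list stood below that share with Sayeok-tang and near it with Scutellariae Radix. POLRMT rose with Sayeok-tang (0.20, SE 0.0663, adjusted p = 0.015), fresh ginger (0.20, adjusted p = 0.01), dried ginger (0.24, adjusted p = 0.0065) and Scutellariae Radix (0.25, adjusted p = 0.0014), and was not called with Bojungikgi-tang (0.04, adjusted p = 0.86) or Pinelliae Tuber (0.09, adjusted p = 0.4). TFAM rose with Sayeok-tang (0.11, adjusted p = 0.042) and fell with dried ginger (-0.22, adjusted p = 2.5e-04) and Scutellariae Radix (-0.11, adjusted p = 0.037), where it stood at 98.3 and 107 CPM against 115 in the vehicle. TFB2M was called in none of the 6 extracts at the high dose, with log2 fold changes of -0.05 to 0.15. LRPPRC rose with Pinelliae Tuber (0.26, adjusted p = 7.5e-07), Scutellariae Radix (0.22, adjusted p = 1.9e-06), dried ginger (0.11, adjusted p = 0.032) and Sayeok-tang (0.10, adjusted p = 0.026), and not with fresh ginger (-0.04, adjusted p = 0.44) or Bojungikgi-tang (0.07, adjusted p = 0.38).

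The list of nuclear respiratory chain subunits also holds 4 subunits of complex II, of which the mitochondrial DNA encodes none. Of the 34 on the list, 3 rose and 4 fell with Sayeok-tang, 2 and 9 with fresh ginger, 5 and 5 with dried ginger, 2 and 0 with Pinelliae Tuber and 9 and 6 with Scutellariae Radix. Beside these stand 40.2, 47.9, 46.1, 15.7 and 56.7% of all genes called, each above the share of the list. With Bojungikgi-tang 9 of the 13 messengers of the mitochondrial DNA rose. The 1 nuclear subunit called there was ATP5MC1, of the ATP synthase (0.26, SE 0.0653, adjusted p = 0.012, edgeR), beside 4.55% of all genes, and the list's median was 0.01. Of the 14 RNAs without a poly(A) tail 8 entered the test, and of these none rose and 1, the histone gene H2AC6, fell with Sayeok-tang, while none was called with fresh ginger. Their sum was 34.3 to 38.4 CPM with Sayeok-tang and 49.7 to 70.9 with fresh ginger at the high dose, against 49.2 to 60.1 in the vehicle. Each Sayeok-tang library lay below the vehicle in this sum.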

How the data were processed

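RNA-seq libraries of HepG2 cells were made from 1 µg of total RNA of RIN over 7 with a directional kit (MGIEasy) and read as pairs of 100 bases, per the labels' protocols. The authors deposited estimated counts per gene, made with RSEM per the submitters' processing notes and not normalized. Per the submitters' processing notes, the tools were FastQC 0.11.9, Trim Galore 0.6.5, STAR 2.7.3a and RSEM 1.3.3 with GRCh38; the annotation release and the strand setting are not given in the sources used here. RSEM divides reads shared by similar genes, and 75.26% of values above 0 were whole. Totals were 22143844 to 31859981 counts, and 209 other columns of the table were not used.

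Counts were rounded. Genes at 1 CPM or more in 3 or more libraries (13945) were fitted over all 58 libraries with edgeR 4.0.16 in R 4.3.3 (TMM factors 0.878 to 1.035, quasi-likelihood test, two-sided, Benjamini-Hochberg adjustment, threshold 0.05, common dispersion 0.00181). CPM are TMM-scaled, except for sums of marker genes and levels of RNAs without a poly(A) tail, which use the library total. Standard errors were derived from the fold change and the test statistic. Groups of 1 library were read against a fold of 1.5, with no test. Intervals of shares are 95% Wilson intervals and, like the floor of 3 counts, cover counting error only. The script was tested on simulated data. Alternatives were RLE scaling, nuclear totals, no filter, the compared groups alone, a replicate block, DESeq2 1.42.0, a lower fold, other denominators and each replicate left out. Leaving out 3 libraries with more ribosomal RNA than the rest of their group and the denominator of nuclear counts were chosen after seeing the data.

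The members and the gene lists were chosen with earlier results of these data known. Values are given for all measured members and the 5 transfer RNA genes of highest mean CPM, for the called messengers of largest rise and fall, for POLRMT, TFAM, TFB2M and LRPPRC, for up to 3 called genes of each list with the largest change, and for nuclear copies with the most reads. ATP5MC1, H2AC6 and RN7SL1 were named after their values were seen. Coordinates and sequences are from GENCODE release 29.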

Additional observations from a re-analysis of the deposited data

How the results depend on the processing

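The counts of called members moved with the setting by more than 1.5 times as follows; the reported count is given first, comparisons named by extract and dose alone are with the vehicle, and the cause was not tested except for the first setting. With no filter on low counts edgeR's prior degrees of freedom for the spread were infinite, against 9.48 in the reported fit, so each gene's own spread between replicates was replaced by the trend. For MT-ATP8 the quasi-dispersion used was 0.79 in place of its own 21.4, so the p-values of this setting are too small and its counts are no check of the calls. The prior degrees of freedom were finite in all other edgeR settings listed here. With no filter the count went from 4 to 10 for Sayeok-tang high, from 1 to 6 for Sayeok-tang medium, from 0 to 3 for Bojungikgi-tang medium, from 0 to 5 for Bojungikgi-tang low, from 5 to 9 for fresh ginger high, from 2 to 10 for fresh ginger medium, from 0 to 1 for fresh ginger low, from 3 to 7 for dried ginger high, from 0 to 3 for dried ginger medium, from 0 to 4 for dried ginger low, from 1 to 6 for Pinelliae Tuber high, from 0 to 2 for Pinelliae Tuber medium, from 0 to 8 for Pinelliae Tuber low, from 2 to 9 for Scutellariae Radix high, from 1 to 2 for Scutellariae Radix medium, from 0 to 8 for Scutellariae Radix low, from 3 to 8 for Sayeok-tang high against Sayeok-tang low, from 2 to 8 for Bojungikgi-tang high against Bojungikgi-tang low, from 4 to 10 for fresh ginger high against fresh ginger low, from 1 to 5 for dried ginger high against dried ginger low, from 0 to 7 for Pinelliae Tuber high against Pinelliae Tuber low, from 2 to 7 for Scutellariae Radix high against Scutellariae Radix low, from 4 to 11 for fresh ginger high against dried ginger high, from 0 to 4 for Pinelliae Tuber high against Scutellariae Radix high. Without 3 libraries whose ribosomal RNA share stood above the rest of their own group (replicate 3 of the low dose of Bojungikgi-tang, dried ginger and Scutellariae Radix), a setting chosen after seeing the data, the count went from 1 to 2 for Sayeok-tang medium, from 1 to 2 for Pinelliae Tuber high, from 1 to 2 for Scutellariae Radix medium, from 2 to 0 for Bojungikgi-tang high against Bojungikgi-tang low, from 1 to 3 for dried ginger high against dried ginger low, from 2 to 0 for Scutellariae Radix high against Scutellariae Radix low, from 0 to 1 for Pinelliae Tuber high against Scutellariae Radix high. Under the setting only the groups compared, the count went from 1 to 2 for Sayeok-tang medium, from 0 to 1 for Bojungikgi-tang medium, from 2 to 7 for fresh ginger medium, from 3 to 5 for dried ginger high, from 0 to 1 for dried ginger medium, from 1 to 4 for Pinelliae Tuber high, from 0 to 1 for Pinelliae Tuber low, from 2 to 6 for Scutellariae Radix high, from 1 to 2 for Scutellariae Radix medium, from 0 to 2 for Scutellariae Radix low, from 2 to 4 for Bojungikgi-tang high against Bojungikgi-tang low, from 4 to 8 for fresh ginger high against fresh ginger low, from 0 to 1 for Pinelliae Tuber high against Pinelliae Tuber low, from 0 to 4 for Pinelliae Tuber high against Scutellariae Radix high. Under the setting DESeq2, the count went from 1 to 0 for Sayeok-tang medium, from 2 to 1 for Scutellariae Radix high against Scutellariae Radix low. Under the setting replicate block, the count went from 1 to 2 for dried ginger high against dried ginger low. Under the setting replicate block within title prefix, the count went from 1 to 2 for dried ginger high against dried ginger low, from 0 to 1 for Pinelliae Tuber high against Scutellariae Radix high. Under the setting nuclear genes only in the totals, the count went from 0 to 1 for Pinelliae Tuber high against Scutellariae Radix high. With a lower fold for the groups of 1 library, the count went from 6 to 10 for Coptidis Rhizoma medium, from 0 to 1 for Zizyphi Fructus low. With each replicate left out in turn, the count of called members ranged from 2 to 4 for Sayeok-tang high, from 0 to 1 for Sayeok-tang medium, from 0 to 0 for Sayeok-tang low, from 0 to 10 for Bojungikgi-tang high, from 0 to 0 for Bojungikgi-tang medium, from 0 to 0 for Bojungikgi-tang low, from 2 to 5 for fresh ginger high, from 2 to 5 for fresh ginger medium, from 0 to 0 for fresh ginger low, from 1 to 3 for dried ginger high, from 0 to 0 for dried ginger medium, from 0 to 1 for dried ginger low, from 1 to 1 for Pinelliae Tuber high, from 0 to 0 for Pinelliae Tuber medium, from 0 to 0 for Pinelliae Tuber low, from 1 to 3 for Scutellariae Radix high, from 0 to 2 for Scutellariae Radix medium, from 0 to 0 for Scutellariae Radix low, from 2 to 4 for Sayeok-tang high against Sayeok-tang low, from 0 to 4 for Bojungikgi-tang high against Bojungikgi-tang low, from 3 to 5 for fresh ginger high against fresh ginger low, from 1 to 4 for dried ginger high against dried ginger low, from 0 to 1 for Pinelliae Tuber high against Pinelliae Tuber low, from 0 to 4 for Scutellariae Radix high against Scutellariae Radix low, from 1 to 12 for Bojungikgi-tang high against Sayeok-tang high, from 2 to 6 for fresh ginger high against dried ginger high, from 0 to 1 for Pinelliae Tuber high against Scutellariae Radix high. The messenger share of counts in percent then ranged from 6.4 to 6.91 for vehicle, from 6.48 to 7.01 for Sayeok-tang high, from 7.46 to 8.4 for Bojungikgi-tang high, from 6.47 to 6.88 for fresh ginger high, from 5.73 to 6.62 for dried ginger high, from 5.97 to 6.5 for Pinelliae Tuber high, from 6.52 to 6.79 for Scutellariae Radix high. The ribosomal RNA share of counts in percent then ranged from 2.53 to 2.62 for vehicle, from 3.48 to 3.86 for Sayeok-tang high, from 2.8 to 2.82 for Bojungikgi-tang high, from 3.67 to 3.72 for fresh ginger high, from 2.53 to 2.67 for dried ginger high, from 2.36 to 2.4 for Pinelliae Tuber high, from 2.48 to 2.52 for Scutellariae Radix high. With another denominator the messenger share was 5.5% for Coptidis Rhizoma medium (denominator without ribosomal and transfer RNAs), 5.82% for Coptidis Rhizoma medium (denominator of nuclear counts), 6.5% for Coptidis Rhizoma low (denominator without ribosomal and transfer RNAs), 6.95% for Coptidis Rhizoma low (denominator of nuclear counts), 6.52% for Zizyphi Fructus high (denominator without ribosomal and transfer RNAs). Of 24 calls of single genes at the high doses 6 passed the threshold under every alternative, no filter included, 45 of 300 alternative values no longer passed it, and 0 changed direction. Same-numbered replicates were not taken to pair the samples: of the comparisons with 3 pairs, 0 had deviations that correlated over 0.1 in every pair. Over all 27 comparisons the correlations were -0.157 to 0.206, and the high against the low dose of Bojungikgi-tang, with 2 pairs, had 0.124 in both. The replicate block moved the counts given for it above by over 1.5 times and no others. Where a replicate left out leaves 1 library in a group, that library is assumed to vary like the other groups.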
